A study of Mus musculus with 12 samples.

Results

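Azacitidine (AzaC) changed gene expression differently in natural regulatory T cells (nTregs) and in CD4 effector T cells of the same kind of co-culture, and this difference between the populations is described here gene by gene. For each gene the measure was the interaction, which is the AzaC minus PBS difference in nTregs less the AzaC minus PBS difference in CD4 effector cells, on the log2 scale. A value above 0 means that AzaC moved the gene more positively in nTregs, and a value below 0 that it moved it more positively in CD4 effector cells. The genes were all those with a table row that carried exactly 1 gene symbol, 22180 genes taken from 41345 rows. Of these, 45 had an interaction with a Benjamini-Hochberg adjusted p under 0.05 in limma, a linear model fitted across all genes, and are called here. The question behind it, as the series is titled, is how AzaC acts on nTregs in graft-versus-host disease.

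The cells were mouse T cells on the B6 background. Spleen nTregs of B6.Foxp3GFP mice, which carry a green reporter of Foxp3, were mixed at 1 part to 10 parts with Treg-depleted T cells of B6.Foxp3GFP x B6.CAGDSRED mice, whose cells also carry the red protein DsRed. In all groups, CD3/CD28 beads and human interleukin-2 at 500 U/mL activated the cells for 2 days, and 2 days with 1 µM AzaC or PBS followed. The nTregs were sorted as CD4-positive, DsRed-negative and reporter-positive cells, and the CD4 effector cells as CD4-positive, DsRed-positive and reporter-negative cells. The sample labels give one combined strain, with both transgenes, for every array, which differs from the origin of the nTregs in the growth protocol. Each of the 4 groups (CD4 effector cells with PBS, the same with AzaC, nTregs with PBS, nTregs with AzaC) had 3 arrays. The labels do not say whether the replicates came from separate animals or cultures, so p-values measure only the spread between these samples, which may be technical. In RNA of sorted cells, a larger share of cells with a transcript and more transcript per cell cannot be told apart.

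As background, AzaC is a cytidine analogue that is incorporated into nucleic acids and traps DNA methyltransferases, so that DNA methylation is lost as cells divide. Regulatory T cells are CD4 T cells that restrain other T cells, depend on the transcription factor Foxp3, and need signals from the T cell receptor, CD28 and interleukin-2. NF-kB factors are held in the cytoplasm by inhibitory IkB proteins. The noncanonical branch of the pathway processes the Nfkb2 product p100 and releases Relb. The tumour suppressor p53 is activated by DNA damage and induces genes that stop the cell cycle, among them Cdkn1a. In activated T cells, SREBP factors drive the enzymes of cholesterol and fatty acid synthesis.

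The array medians lay between 6.67 and 6.80 on the log2 scale, and no pair of arrays was identical. Array nTreg PBS 1 stood furthest from its group, with a standard deviation of 0.257 from the group mean over all genes, followed by CD4 PBS 3 at 0.192. The mean correlation with the other arrays was 0.972 for nTreg PBS 1, 0.979 for CD4 PBS 3 and 0.983 to 0.987 for the other arrays. The Treg marker Foxp3, whose reporter was part of the sort, read 11.98 to 12.72 in nTregs and 7.79 to 9.85 in CD4 effector cells, and Cd4 read 10.37 to 11.71 over all arrays. The median SE of an interaction was 0.183, and 3 arrays per group limit the precision of every value. Over all genes the median interaction was −0.04.

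The interaction was called for 45 of 22180 genes (0.203% of all genes), 32 above 0 (0.144%) and 13 below 0 (0.0586%). Sizes ran from 0.72 to 1.99, with SEs from 0.13 to 0.32, and 38 genes reached at least 1. Among the 32 genes above 0, 22 rose in nTregs with AzaC and did not pass the test in CD4 effector cells, and 6 fell in CD4 effector cells and did not pass in nTregs. The remaining ones were Scd1, which fell in both populations, Ly6g5b, which rose in both, Il7r, which rose in nTregs and fell in CD4 effector cells, and Mir133a-2, which passed in neither. Among the 13 genes below 0, 10 rose in CD4 effector cells without passing in nTregs. Muc3a and Gpr155 fell in nTregs without passing in CD4 effector cells, and 4930431P03Rik rose in CD4 effector cells and fell in nTregs. At an unadjusted p under 0.05 stood 3871 genes (17.5%), 1810 above 0 (8.16%) and 2061 below 0 (9.29%). With each array centred on its median, 92.3% of the called genes lay above 0, against 71.1% on the values as deposited.

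**Figure D1:**
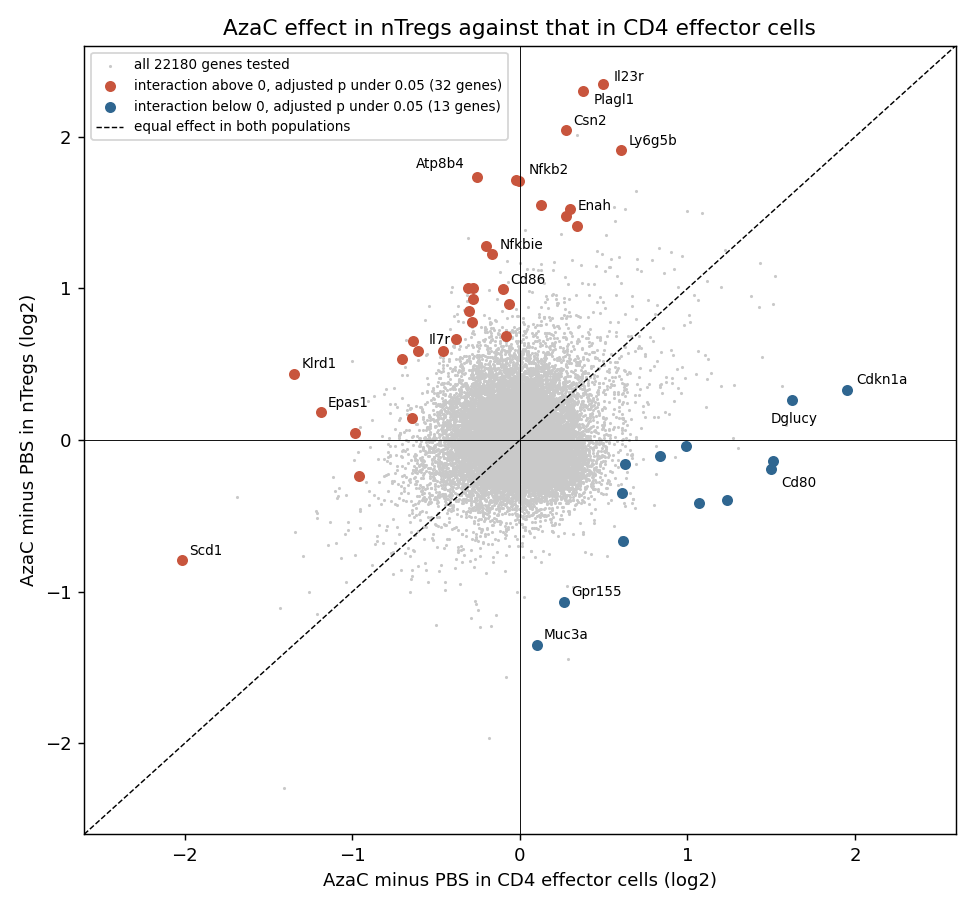
Log2 difference AzaC minus PBS in CD4 effector cells (horizontal axis) and in nTregs (vertical axis) for all 22180 genes, 1 point per gene. By the definition of the interaction, the 32 genes called above 0 (red) lie above the diagonal of equal effect. The 13 genes called below 0 (blue) lie under it for the same reason. Plagl1 and Il23r are high in nTregs, and Cdkn1a and Cd80 are far to the right in CD4 effector cells.

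Most calls did not hold in every fit with 1 array left out. Such a fit also has fewer arrays, and how much of the loss came from that was not tested. Plagl1, Atp8b4, Nfkbie, Enah, Il7r, Cd80 and Cdkn1a kept their call when each of the 12 arrays was left out in turn. For the other 38 genes, between 2 (Klrd1) and 12 (Dcxr) of these 12 fits lost the call. Dusp4 and Birc2 lost it in 11 fits, Mir34a in 10 and Cd86 in 9. The adjusted p was at most 0.155 in any such limma fit, and all kept their sign. Of the 45 calls, 36 were lost without nTreg AzaC 1 or without CD4 AzaC 3, 35 without CD4 AzaC 1, and 33 without CD4 PBS 2 or CD4 PBS 3. Calls lost numbered 32 without nTreg AzaC 3, 30 without CD4 PBS 1, 27 without nTreg AzaC 2 and 26 without CD4 AzaC 2. They numbered 18 without nTreg PBS 2, 10 without nTreg PBS 3 and 3 without nTreg PBS 1. All 45 genes are named below. The genes outside the 7 stable calls and the fixed list of genes were named after their values were seen.

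**Figure D2:**
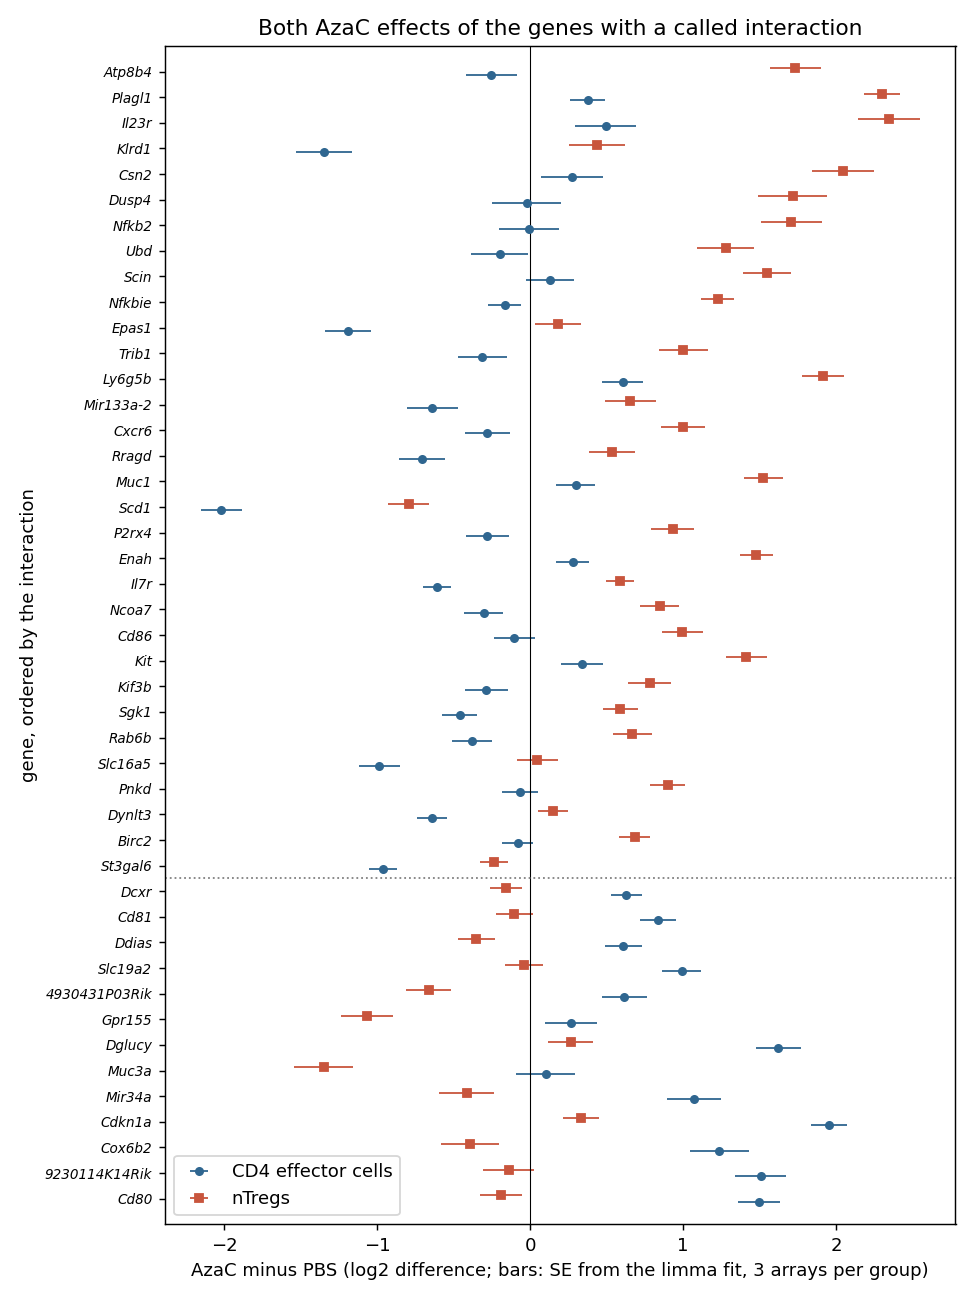
AzaC minus PBS (log2) of the 45 called genes in CD4 effector cells (blue circles) and nTregs (red squares), ordered by the interaction, with SEs from the limma fit over 3 arrays per group as bars. Above the dotted line are the 32 genes with an interaction above 0, and below it the 13 with one below 0. By the definition of the interaction, the red square lies to the right of the blue circle in the former and to the left in the latter.

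Plagl1, which is imprinted and encodes the zinc finger factor Zac1, had the smallest p among all genes. It read 5.92, 5.89 and 5.84 on the CD4 PBS arrays, 6.41, 6.13 and 6.23 with AzaC, 6.73, 6.91 and 6.68 on the nTreg PBS arrays and 8.90, 9.07 and 9.24 on the nTreg AzaC arrays. The nTreg AzaC arrays stood more than 1 log2 unit above all others, and the 4 groups did not overlap. The effect was 2.30 in nTregs and 0.38 in CD4 effector cells, an interaction of 1.92 (SE 0.16, adjusted p = 0.000268 in limma) which is a ratio of 3.79 between the fold changes. Atp8b4, of the phospholipid flippase family, read 9.35, 9.49 and 9.62 in CD4 PBS, 9.27, 9.28 and 9.16 in CD4 AzaC, 6.36, 6.97 and 7.15 in nTreg PBS and 8.71, 8.58 and 8.38 in nTreg AzaC. With AzaC the nTreg arrays came nearer to the CD4 arrays but did not reach them. Its interaction of 1.99 (SE 0.24, adjusted p = 0.00311 in limma) came from a rise of 1.73 in nTregs beside −0.25 in CD4 effector cells. Enah, an actin regulator of the Ena/VASP family, read 8.50, 8.23 and 8.33 in nTreg PBS and 9.86, 9.70 and 9.94 in nTreg AzaC, against 5.84 to 6.27 on the 6 CD4 arrays. Its nTreg groups did not overlap, and the interaction was 1.20 (SE 0.15, adjusted p = 0.00493 in limma).

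Il7r, the alpha chain of the interleukin-7 receptor that naive and memory T cells use for survival signals, went in opposite directions. It read 11.22, 11.19 and 11.24 in CD4 PBS and 10.53, 10.66 and 10.64 in CD4 AzaC, and 10.57, 10.46 and 10.63 in nTreg PBS and 11.20, 11.13 and 11.10 in nTreg AzaC. CD4 PBS and nTreg AzaC arrays were high and the other 6 arrays low, so the order of the populations under PBS was turned with AzaC. Il7r fell by 0.61 in CD4 effector cells (adjusted p = 0.00357 in limma) and rose by 0.59 in nTregs (adjusted p = 0.00405 in limma), an interaction of 1.20 (SE 0.13). Of the 20 measured genes of common gamma chain receptors and STAT signalling, Il7r was the 1 called above 0 (0.144% of all genes). At an unadjusted p under 0.05 stood also Stat6 at 0.74 and Il2ra, the alpha chain of the interleukin-2 receptor, at −0.33. In all, 3 of the 20 stood at that level, beside 17.5% of all genes. The list median was 0.16, and −0.02 without nTreg PBS 1.

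The promoters of Plagl1 and Il7r are shown because DNA methyltransferases act on CpG sites and these genes had the 2 smallest p-values among the genes above 0. The windows, from RefSeq on GRCm38.p6, run from 250 bases before to 50 bases after the annotated start and are printed 5′ to 3′ on the gene's strand with each CpG in capitals. Plagl1 lies at chr10:13090582-13090881 (plus strand) and holds 26 CpG sites, and Il7r lies at chr15:9529827-9530126 (minus strand) and holds 1.
Plagl1: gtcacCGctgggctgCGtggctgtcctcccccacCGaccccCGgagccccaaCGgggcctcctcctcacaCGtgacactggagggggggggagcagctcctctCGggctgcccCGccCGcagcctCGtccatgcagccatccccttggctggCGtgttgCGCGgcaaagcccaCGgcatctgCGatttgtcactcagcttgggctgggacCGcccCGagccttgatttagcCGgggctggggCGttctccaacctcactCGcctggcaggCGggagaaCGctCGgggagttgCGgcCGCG
Il7r: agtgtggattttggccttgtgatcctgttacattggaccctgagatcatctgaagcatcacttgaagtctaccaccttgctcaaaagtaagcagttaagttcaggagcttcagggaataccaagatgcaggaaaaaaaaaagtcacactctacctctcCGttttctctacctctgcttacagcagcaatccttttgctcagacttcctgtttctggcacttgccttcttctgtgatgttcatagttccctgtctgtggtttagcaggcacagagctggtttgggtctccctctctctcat
Over the 16990 genes with a matched promoter, the median was 13 CpG sites in the first window. It was 12.5 for the 24 matched genes above 0 and 8.5 for the 10 matched genes below 0. The ratio of observed to expected CpG had medians of 0.58, 0.50 and 0.41 in the same order. Methylation itself was not measured here.

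Most NF-kB genes, 20 of 22, had an interaction above 0, beside 10080 of all 22180 genes. Of the 22 measured subunits, inhibitors and regulators, Nfkb2, Nfkbie and Birc2 were called above 0 (0.144% of all genes). In all, 14 had an unadjusted p under 0.05, all 14 above 0, against 8.16% of all genes. The list median was 0.56, beside −0.04 over all genes. It lay between 0.50 and 0.64 when each array was left out, was 0.68 with centred arrays and 0.44 with repeated quantile normalization. AzaC raised 10 of the 22 genes in nTregs (1.42% of all genes rose there), and the list's median effect was 0.48 in nTregs and −0.03 in CD4 effector cells. The mean signal of the list was 9.62, 9.67 and 9.59 on the nTreg AzaC arrays and 8.89 to 9.22 on the other 9 arrays, so the nTreg AzaC arrays stood apart from all others. Array nTreg PBS 1 read 8.89, below 9.22 on nTreg PBS 2 and on nTreg PBS 3, and without it 13 of the 14 genes kept an unadjusted p under 0.05. Over all 12 omissions, 12 to 15 of the 22 genes had one.

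Nfkb2 encodes p100 and its product p52. It read 9.25, 9.41 and 9.22 in CD4 PBS, 9.49, 9.32 and 9.06 in CD4 AzaC, 8.52, 9.27 and 9.48 in nTreg PBS and 10.77, 10.94 and 10.68 in nTreg AzaC. The nTreg AzaC arrays were more than 1 log2 unit above the other 9, which overlapped. The effects were 1.71 in nTregs and −0.00 in CD4 effector cells, and the interaction was 1.71 (SE 0.28, adjusted p = 0.0253 in limma). The call was lost without 9 of the 12 arrays, with an adjusted p of up to 0.0895 in limma (without CD4 AzaC 3). Without nTreg PBS 1, its lowest array, the interaction was 1.43 (adjusted p = 0.00442 in limma). Nfkbie, the inhibitor IkB epsilon, read 8.07, 8.16 and 8.14 in CD4 PBS, 8.07, 7.89 and 7.91 in CD4 AzaC, 7.49, 7.83 and 7.73 in nTreg PBS and 8.85, 9.02 and 8.85 in nTreg AzaC. Its nTreg AzaC arrays were again above all others, with an interaction of 1.39 (SE 0.15, adjusted p = 0.00194 in limma). Birc2, the ubiquitin ligase cIAP1 that limits the noncanonical branch, had the least of the 3 called interactions at 0.77 (SE 0.14, adjusted p = 0.0482 in limma). Its call was lost without 11 of the 12 arrays.

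The other members gave the same sign in most cases. Relb, the partner of p52, rose by 1.17 in nTregs, and its interaction of 0.97 had an unadjusted p = 0.00055 and an adjusted p = 0.103 in limma. The interaction was 0.78 for Traf2, 0.76 for Traf1, 0.69 for Bcl3, 0.68 for Tnip1, 0.60 for Birc3, 0.54 for Rela and 0.51 for Rel, each at an unadjusted p under 0.05. Map3k14, the kinase NIK, stood at 0.57 and Nfkbia, the inhibitor IkB alpha, at 0.31. The 2 members below 0 were Nfkbiz at −0.20 and Ikbkg at −0.06, with unadjusted p of 0.23 and 0.72. The TNF superfamily, whose receptors feed the pathway, was mixed. Of 27 ligands and receptors 5 had an unadjusted p under 0.05 above 0, led by the ligand Ltb at 1.06 (adjusted p = 0.111 in limma), and 3 below 0, led by Tnfsf4 at −0.90. Over all genes the shares were 8.16% and 9.29%, and the list median was 0.15.

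**Figure D3:**
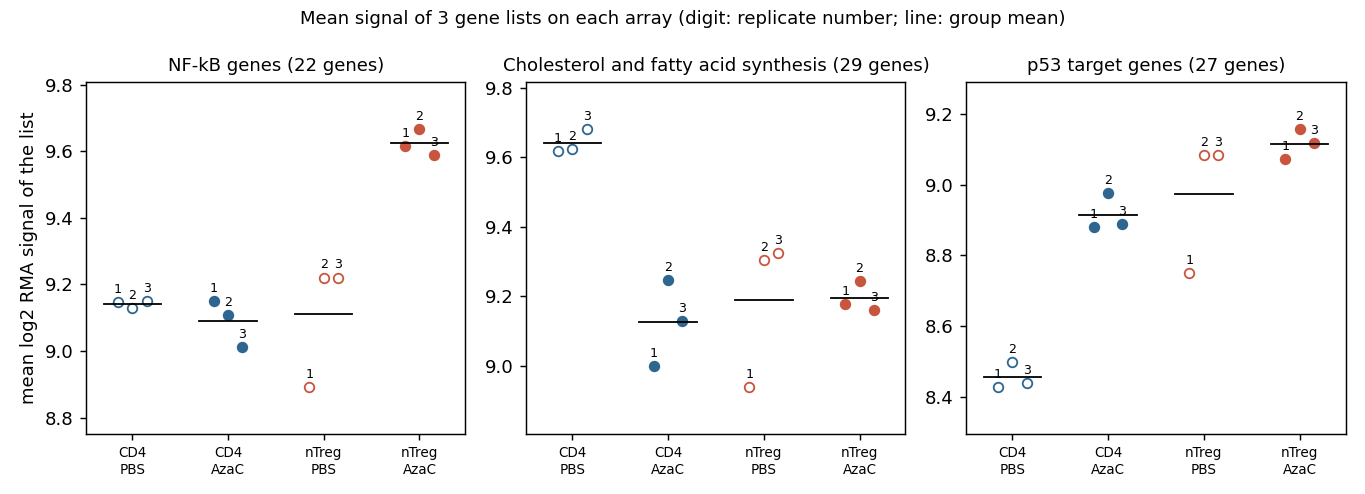
Mean log2 RMA signal of 3 gene lists on each of the 12 arrays, by group, with the replicate number beside each point and the group mean as a line; each panel has its own axis. The NF-kB genes are highest on the 3 nTreg AzaC arrays (9.59 to 9.67), the cholesterol and fatty acid genes on the 3 CD4 PBS arrays (9.62 to 9.68), and the p53 targets are lowest on the 3 CD4 PBS arrays (8.43 to 8.50).

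The promoters of Nfkb2, Il23r and Ubd are printed because they held a pattern of 10 bases on either strand: 3 G, any 2 bases, 3 T and 2 C. They were the 3 of 24 matched genes above 0 (12.5%) that did. The pattern is a simplified form of NF-kB sites, so it can mark other letters and miss sites written otherwise, which were not searched. In all, 317 of 16990 matched genes (1.87%) held it, as did 7 of the 19 matched NF-kB genes (36.8%), Nfkb2 among them. A match describes letters only and is no sign of binding. The match is in capitals, and windows are as above: Nfkb2 at chr19:46304487-46304786 and chr19:46305445-46305744 (plus strand; another window, chr19:46305680-46305979, overlaps the second and holds the same match, so it is not printed), Il23r at chr6:67491806-67492105 (minus strand) and Ubd at chr17:37193642-37193941 (plus strand).
Nfkb2, first window: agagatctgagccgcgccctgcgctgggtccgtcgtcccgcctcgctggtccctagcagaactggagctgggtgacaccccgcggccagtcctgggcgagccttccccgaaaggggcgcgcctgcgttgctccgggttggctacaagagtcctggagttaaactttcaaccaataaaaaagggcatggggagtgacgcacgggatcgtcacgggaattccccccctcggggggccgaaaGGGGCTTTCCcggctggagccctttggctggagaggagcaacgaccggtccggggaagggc
Nfkb2, second window: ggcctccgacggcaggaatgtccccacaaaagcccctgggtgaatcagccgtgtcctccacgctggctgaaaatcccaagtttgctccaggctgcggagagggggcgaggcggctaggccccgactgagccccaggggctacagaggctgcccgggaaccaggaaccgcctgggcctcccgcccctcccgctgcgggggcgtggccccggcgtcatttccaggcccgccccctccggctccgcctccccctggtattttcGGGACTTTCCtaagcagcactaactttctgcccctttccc
Il23r: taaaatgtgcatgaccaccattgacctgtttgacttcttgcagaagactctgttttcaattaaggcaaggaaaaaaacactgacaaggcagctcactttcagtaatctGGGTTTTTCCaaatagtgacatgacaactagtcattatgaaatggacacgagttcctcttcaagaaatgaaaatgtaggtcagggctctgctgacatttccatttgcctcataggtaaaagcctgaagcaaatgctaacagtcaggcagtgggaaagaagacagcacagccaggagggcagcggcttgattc
Ubd: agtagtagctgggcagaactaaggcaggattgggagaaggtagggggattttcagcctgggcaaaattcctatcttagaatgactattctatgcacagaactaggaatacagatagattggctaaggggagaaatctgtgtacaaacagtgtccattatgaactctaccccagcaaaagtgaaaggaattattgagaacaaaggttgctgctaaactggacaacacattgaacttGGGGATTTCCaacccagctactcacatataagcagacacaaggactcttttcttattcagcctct
No promoter of the 10 matched genes below 0 held it in its window.

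Receptors and costimulatory molecules were among the called genes. Il23r, a chain of the interleukin-23 receptor, read 4.75, 4.56 and 4.79 in CD4 PBS, 5.00, 5.31 and 5.27 in CD4 AzaC, 5.34, 4.87 and 4.53 in nTreg PBS and 7.69, 7.04 and 7.05 in nTreg AzaC. The nTreg AzaC arrays were the only ones above the median of all gene values, 6.96. The interaction was 1.85 (SE 0.28, adjusted p = 0.0198 in limma), from 2.35 in nTregs and 0.49 in CD4 effector cells. Il23r was the 1 called gene of 18 type 17 and interleukin-23 genes (0.203% of all genes were called). Tmem176a at 0.98, Batf at 0.75 and Tmem176b at 0.51 had an unadjusted p under 0.05, while the cytokines Il17a at 0.05, Il17f at 0.01, Il21 at 0.07 and Il22 at −0.01 did not. With Il23r, 4 of the 18 stood at that level, all above 0, beside 8.16% of all genes. The list median was 0.06.

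Klrd1, the CD94 chain of NK-type inhibitory and activating receptors, read 8.56, 8.16 and 8.0 in CD4 PBS, 6.98, 6.63 and 7.08 in CD4 AzaC, 6.86, 6.67 and 7.29 in nTreg PBS and 7.59, 7.24 and 7.29 in nTreg AzaC. CD4 PBS arrays were highest, and the other 9 arrays overlapped. Klrd1 fell by 1.35 in CD4 effector cells beside 0.44 in nTregs, an interaction of 1.78 (SE 0.26, adjusted p = 0.0178 in limma). Of 23 cytotoxic effector genes it was the 1 called (0.203% of all genes were called), and the list median was 0.08. Unadjusted p-values under 0.05 were found above 0 also for Serpinb9 at 0.91, Gzmc at 0.89, Ctsw at 0.83, Klrk1 at 0.63 and Lamp1 at 0.52, and below 0 for Cst7 at −0.44 and Gzmb at −0.40. With Klrd1, 6 of the 23 stood above 0 at that level (8.16% of all genes) and 2 below 0 (9.29%). Gzmb, the protease granzyme B, rose by 0.77 in CD4 effector cells and stood at 0.37 in nTregs, and its interaction had an adjusted p of 0.238 in limma.

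Cd86 and Cd80, the B7 ligands of CD28 and Ctla4, were called in opposite directions. Cd86 read 7.38, 7.56 and 7.81 in CD4 PBS, 7.57, 7.35 and 7.52 in CD4 AzaC, 8.56, 8.33 and 8.55 in nTreg PBS and 9.26, 9.56 and 9.61 in nTreg AzaC. Its CD4 groups overlapped and its nTreg groups did not, and the interaction was 1.10 (SE 0.19, adjusted p = 0.0356 in limma). Cd80 read 8.71, 8.84 and 9.08 in CD4 PBS, 10.68, 10.15 and 10.30 in CD4 AzaC, 11.09, 10.98 and 10.96 in nTreg PBS and 10.78, 10.78 and 10.90 in nTreg AzaC. Here the CD4 PBS arrays were the low ones, by more than 1 log2 unit, and no 2 of the 4 groups overlapped. Cd80 rose by 1.50 in CD4 effector cells and stood at −0.19 in nTregs, an interaction of −1.69 (SE 0.19, adjusted p = 0.00195 in limma). Among the 23 B7, CD28-family and inhibitory receptor genes, these were the calls (0.203% of all genes were called). In all, 4 of the 23 had an unadjusted p under 0.05 (17.5% of all genes), 3 above 0 (8.16%) and 1 below 0 (9.29%). The list median was 0.18, and 0.09 without nTreg PBS 1. The inhibitory receptor Ctla4 had an interaction of 0.29 (95% interval −0.05 to 0.63).

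**Figure D4:**
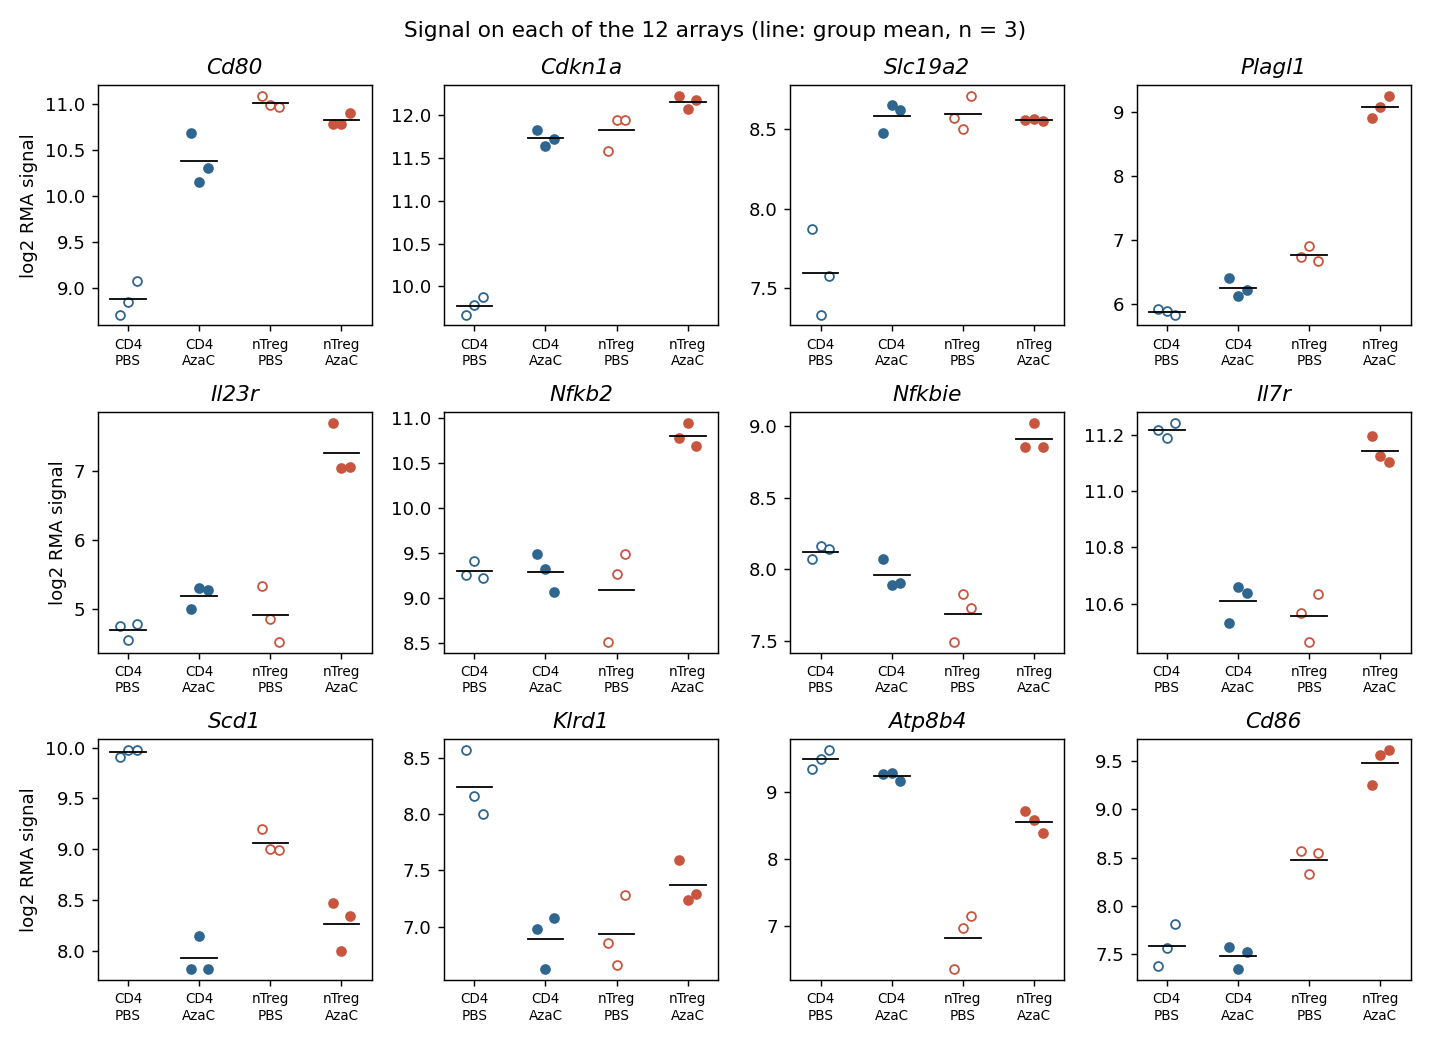
Log2 RMA signal of 12 called genes on each of the 12 arrays, by group, with the group mean of 3 arrays as a line; each panel has its own axis. Cd80, Cdkn1a and Slc19a2 are low on the CD4 PBS arrays alone, while Plagl1, Il23r, Nfkb2 and Nfkbie are high on the nTreg AzaC arrays alone and Il7r changes its order between the populations.

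Other receptors above 0 rose in nTregs. The chemokine receptor Cxcr6 rose by 1.00 there beside −0.28 in CD4 effector cells, an interaction of 1.28 (SE 0.21). It read 6.80, 6.53 and 7.04 in nTreg PBS and 7.67, 7.71 and 7.995 in nTreg AzaC, against 7.06 to 7.52 on the CD4 arrays, so the nTregs went from the lowest group to the highest. Kit, the receptor of stem cell factor, rose by 1.41 in nTregs beside 0.34 (interaction 1.07, SE 0.19). The ATP-gated channel P2rx4 rose by 0.93 beside −0.28 (interaction 1.21, SE 0.20). All 3 had nTreg AzaC arrays above every other array.

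Among signalling genes, Dusp4, a phosphatase that inactivates MAP kinases, had the largest SE of the called genes. It read 8.17, 8.43 and 9.15 in nTreg PBS and 9.87, 10.43 and 10.60 in nTreg AzaC, against 7.55 to 7.94 on the CD4 arrays. The nTreg groups did not overlap, and the interaction was 1.74 (SE 0.32, adjusted p = 0.0468 in limma). Trib1, a pseudokinase that directs proteins to degradation, rose by 1.00 in nTregs beside −0.31 in CD4 effector cells (interaction 1.31, SE 0.22). Sgk1, a kinase of the serum and glucocorticoid response, rose by 0.59 in nTregs beside −0.46 (interaction 1.05, SE 0.16). Rragd, a Rag GTPase that brings amino acid signals to mTORC1, differed in the other population: it fell by 0.71 in CD4 effector cells beside 0.53 in nTregs (interaction 1.24, SE 0.21). Ncoa7, a nuclear receptor coactivator, rose by 0.85 in nTregs beside −0.30 (interaction 1.15, SE 0.18).

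Lipid synthesis genes had a more negative AzaC effect in CD4 effector cells than in nTregs. Scd1, the desaturase that makes monounsaturated fatty acids, read 9.91, 9.97 and 9.97 in CD4 PBS, 7.82, 8.15 and 7.83 in CD4 AzaC, 9.20, 8.999 and 8.99 in nTreg PBS and 8.47, 7.998 and 8.34 in nTreg AzaC. It fell by 2.02 in CD4 effector cells, it also fell by 0.79 in nTregs, and the 2 AzaC groups overlapped. The interaction was 1.22 (SE 0.19, adjusted p = 0.0198 in limma). Scd1 was the 1 call among 29 genes of cholesterol and fatty acid synthesis (0.203% of all genes were called). Of the 29, 19 had an unadjusted p under 0.05 above 0 (8.16% of all genes) and 1, Me1 at −0.51, below 0 (9.29%). The list's median interaction was 0.45, with a median effect of −0.46 in CD4 effector cells and 0.03 in nTregs. In CD4 effector cells 11 of the 29 genes fell (0.933% of all genes fell there).

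Hmgcs1, which starts the mevalonate pathway, had an interaction of 1.17, with 0.26 in nTregs and a fall by 0.91 in CD4 effector cells. Fdps had an interaction of 0.68 and fell by 1.04 in CD4 effector cells, and Sqle, the squalene epoxidase, had one of 0.57 and fell by 0.81 there. The regulator Srebf2 had an interaction of 0.87 (adjusted p = 0.228 in limma). The mean signal of the list was 9.62, 9.62 and 9.68 in CD4 PBS, 9.001, 9.25 and 9.13 in CD4 AzaC, 8.94, 9.31 and 9.33 in nTreg PBS and 9.18, 9.24 and 9.16 in nTreg AzaC. The CD4 PBS arrays were the highest 3, and the other 9 overlapped. Array nTreg PBS 1 was the lowest of the 12, and without it the list median was 0.41 and 16 of the 29 genes had an unadjusted p under 0.05. That count was lowest, 13, without nTreg AzaC 2. The letters TCACNCCAC on either strand, an SREBP consensus, were in 1 of 23 matched promoters of the list (4.35%), against 243 of 16990 (1.43%).

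Epas1, the oxygen-regulated factor HIF-2 alpha, read 9.23, 9.50 and 9.53 in CD4 PBS, 8.22, 8.22 and 8.25 in CD4 AzaC, 7.73, 8.07 and 8.37 in nTreg PBS and 8.43, 8.08 and 8.21 in nTreg AzaC. The CD4 PBS arrays stood above all others, which overlapped. Epas1 fell by 1.19 in CD4 effector cells, and the interaction was 1.37 (SE 0.21, adjusted p = 0.0198 in limma). Of 27 glycolysis and hypoxia-induced genes, 5 had an unadjusted p under 0.05, near the 17.5% of all genes in either direction. All 5 were above 0 (8.16% of all genes), and limma called none at the adjusted threshold. The count in either direction was 10 without nTreg PBS 3. Aldoc had the highest value, 1.31, and P4ha2 stood at 0.75. The list median of 0.32 was 0.09 without nTreg PBS 1 and 0.20 without CD4 PBS 3. The monocarboxylate transporter Slc16a5 fell by 0.98 in CD4 effector cells (interaction 1.03, SE 0.19).

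The remaining genes above 0 had varied roles. Scin, an actin-severing protein, read 6.51, 6.50 and 6.45 in nTreg PBS and 8.44, 7.68 and 7.997 in nTreg AzaC, with 6.33 to 6.69 on the CD4 arrays (interaction 1.42, SE 0.22). The mucin Muc1 rose by 1.53 in nTregs (interaction 1.23, SE 0.18). Ly6g5b, of the Ly6 family, rose by 1.91 in nTregs and by 0.60 in CD4 effector cells (interaction 1.31, SE 0.19). These had nTreg AzaC arrays above every other array. Traffic and motor genes were Kif3b, a kinesin (interaction 1.07), Rab6b, a Golgi GTPase (1.05), and Dynlt3, a dynein light chain (0.79). Kif3b and Rab6b rose in nTregs by 0.78 and 0.67, and Dynlt3 fell in CD4 effector cells by 0.64. The sialyltransferase St3gal6 had the least interaction of the 45, 0.72 (SE 0.13), and fell by 0.96 in CD4 effector cells, while Pnkd rose by 0.90 in nTregs (interaction 0.97). Csn2 (1.77), Ubd (1.48) and Mir133a-2 (1.29) were called although all their arrays lay at or below 6.97, near or under the median of all gene values. Csn2, a milk casein, read 4.47, 4.76 and 4.70 in nTreg PBS and 6.63, 6.52 and 6.91 in nTreg AzaC. Ubd, the ubiquitin-like FAT10, read 5.97, 5.39 and 5.38 and then 6.97, 6.67 and 6.94. Whether these signals were above background was not tested.

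Below 0, Cdkn1a, the cell cycle inhibitor p21, had the smallest p. It read 9.67, 9.79 and 9.87 in CD4 PBS, 11.82, 11.64 and 11.72 in CD4 AzaC, 11.58, 11.94 and 11.95 in nTreg PBS and 12.22, 12.07 and 12.17 in nTreg AzaC. CD4 PBS arrays were the lowest, and CD4 AzaC arrays overlapped the nTreg PBS arrays. Cdkn1a rose by 1.95 in CD4 effector cells and stood at 0.33 in nTregs, an interaction of −1.62 (SE 0.16, adjusted p = 0.00126 in limma). Without nTreg PBS 1, its lowest nTreg array, the call was kept.

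Other p53 targets differed in sign. Of 27 measured targets, Cdkn1a was the 1 called (0.203% of all genes were called). In all, 10 had an unadjusted p under 0.05 below 0 (9.29% of all genes) and 1, the death receptor Fas at 0.48, above 0 (8.16%). Of all 27, 8 had an interaction above 0, beside 10080 of all 22180 genes. In CD4 effector cells 11 of the 27 rose (0.83% of all genes rose there). The list's median interaction was −0.34, with a median effect of 0.33 in CD4 effector cells and 0.14 in nTregs. Next to Cdkn1a stood Trp53cor1, a long noncoding RNA, at −1.35 (adjusted p = 0.0517 in limma), the kinase Plk2 at −1.26, Phlda3 at −0.84, and the death receptor Tnfrsf10b and the polymerase Polk at −0.61 each. Members without a difference at the unadjusted level included Mdm2 at −0.13, Bbc3 at 0.30 and Pmaip1 at −0.34. The list mean was 8.43, 8.50 and 8.44 in CD4 PBS, 8.88, 8.98 and 8.89 in CD4 AzaC, 8.75, 9.08 and 9.08 in nTreg PBS and 9.07, 9.16 and 9.12 in nTreg AzaC. CD4 PBS arrays were the lowest 3. The list median lay between −0.51 (without nTreg PBS 1, the lowest nTreg array) and −0.23 (without nTreg PBS 2) when each array was left out. In these fits 16 and 10 of the 27 genes had an unadjusted p under 0.05, the most and the fewest of the 12. With centred arrays the median was −0.21, where that of all genes was 0.09.

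Mir34a, a microRNA gene known as a p53 target, was called below 0. Its mature 5′ product is printed from RefSeq (GRCm38.p6, chr4:150068473-150068494, plus strand) with the seed, bases 2 to 8, in capitals, since the seed sets which transcripts it pairs with.
miR-34a-5p: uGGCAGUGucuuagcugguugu
The array row does not separate the mature form from its precursor. Mir34a read 7.09, 6.92 and 7.24 in CD4 PBS, 8.41, 7.98 and 8.08 in CD4 AzaC, 7.53, 8.04 and 8.28 in nTreg PBS and 7.76, 7.38 and 7.48 in nTreg AzaC. CD4 AzaC arrays overlapped the nTreg PBS arrays and lay above the CD4 PBS arrays. It rose by 1.07 in CD4 effector cells and stood at −0.41 in nTregs, an interaction of −1.49 (SE 0.25, adjusted p = 0.0351 in limma). Ddias, a gene induced by DNA damage that limits apoptosis, rose by 0.61 in CD4 effector cells beside −0.35 in nTregs (interaction −0.96, SE 0.17).

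The other genes below 0 split by the population that moved. Slc19a2, a thiamine transporter, read 7.87, 7.33 and 7.58 in CD4 PBS and 8.47, 8.65 and 8.62 in CD4 AzaC, and 8.50 to 8.71 on the 6 nTreg arrays. Its CD4 AzaC arrays thus overlapped the nTregs (interaction −1.03, SE 0.18). The tetraspanin Cd81 rose by 0.84 in CD4 effector cells beside −0.10 in nTregs, where it read 10.85 to 11.12 against 8.98 to 10.12 in CD4 effector cells (interaction −0.94, SE 0.17). Dglucy, a D-glutamate cyclase, rose by 1.62 in CD4 effector cells beside 0.27 (interaction −1.36, SE 0.21). 9230114K14Rik rose by 1.51 beside −0.14 (interaction −1.65, SE 0.23), and Cox6b2, a subunit of cytochrome oxidase, by 1.24 beside −0.39 (interaction −1.63, SE 0.27). Dcxr, a carbonyl reductase, rose by 0.63 beside −0.16 (interaction −0.79, SE 0.14).

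In nTregs, Muc3a and Gpr155 fell. The mucin Muc3a read 10.51, 10.25 and 10.86 in nTreg PBS and 9.28, 8.70 and 9.60 in nTreg AzaC, against 7.23 to 7.44 on the CD4 arrays, so the nTregs stayed above CD4 effector cells in both conditions. Its interaction was −1.45 (SE 0.27, adjusted p = 0.0495 in limma). Gpr155 read 8.54, 8.82 and 8.64 in nTreg PBS and 7.55, 7.99 and 7.26 in nTreg AzaC, which overlapped the CD4 arrays at 7.06 to 7.72 (interaction −1.33, SE 0.24). 4930431P03Rik fell by 0.66 in nTregs and rose by 0.62 in CD4 effector cells, with values of 9.83 to 10.25 and 9.33 to 9.37 in nTregs and 7.94 to 8.27 and 8.56 to 9.06 in CD4 effector cells. Its groups did not overlap, and the populations were closer with AzaC (interaction −1.28, SE 0.21).

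Foxp3 itself was not called. It read 7.79, 8.09 and 8.27 in CD4 PBS, 9.39, 9.61 and 9.85 in CD4 AzaC, 11.98, 12.52 and 12.52 in nTreg PBS and 12.72, 12.68 and 12.68 in nTreg AzaC. The groups did not overlap, and the CD4 AzaC arrays lay between CD4 PBS and nTregs. Foxp3 rose by 1.57 in CD4 effector cells, which were sorted as negative for the reporter, and stood at 0.35 in nTregs. The interaction was −1.21 (SE 0.23, unadjusted p = 0.000128, adjusted p = 0.0517 in limma). Without nTreg PBS 1, its lowest nTreg array, the interaction was −1.39 and passed the test (adjusted p = 0.0105 in limma), while without any other single array the adjusted p lay between 0.0626 and 0.165.

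Other Treg genes were mixed. Of 35 measured signature genes, Plagl1 and Dusp4 were called above 0 (0.144% of all genes). In all, 5 had an unadjusted p under 0.05 above 0 (8.16% of all genes) and 3 below 0 (9.29%). The list median was 0.17, or 0.06 without nTreg PBS 1. The count in either direction, 8, was 13 without nTreg PBS 1 and 14 without nTreg PBS 3. Below 0 with Foxp3 were the chemokine receptor Ccr8 at −0.83 and Il2ra at −0.33, and above 0 were the integrin Itgae at 0.63, Klrg1 at 0.50 and the ectonucleotidase Entpd1 at 0.48. The interaction was 0.24 for Ikzf2 (95% interval −0.14 to 0.62) and −0.22 for Ikzf4 (−0.66 to 0.22), the Ikaros family partners of Foxp3. Ikzf4 rose in both populations, by 0.76 in nTregs and 0.98 in CD4 effector cells.

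Both measured markers of CD8 T cells rose in nTregs with AzaC although the sort required CD4, and neither interaction was called. Under PBS, Cd8a differed by 0.005 between nTregs and CD4 effector cells (adjusted p = 0.991 in limma). Cd8a read 6.91, 6.96 and 6.69 in CD4 PBS, 6.66, 7.09 and 6.91 in CD4 AzaC, 6.45, 6.73 and 7.39 in nTreg PBS and 8.32, 8.17 and 8.24 in nTreg AzaC. Cd8b1 read 9.97 to 10.29, 9.56 to 10.17, 10.25 to 10.53 and 11.06 to 11.20 in the same order. Both genes were highest on the 3 nTreg AzaC arrays. Their interactions were 1.35 and 1.00, with adjusted p of 0.0666 and 0.0709 in limma, and both rose in nTregs. The part of CD8 cells in the results above was not tested. The mean of the 7 measured markers of CD4 T cells lay between 11.58 and 12.02, and list means lay between 6.30 and 6.73 for 6 B cell markers, 5.93 and 6.34 for 11 myeloid and dendritic markers, and 5.64 and 6.46 for 2 NK cell markers. Of these 19 markers, 3 had an unadjusted p under 0.05 (17.5% of all genes), all below 0 (9.29%): Blnk at −0.40, Klrb1c at −0.65 and Ncr1 at −0.38.

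In the further gene groups given in this paragraph the list medians lay between −0.08 and 0.10. Of 29 G2/M and mitotic genes, limma called none and none had an unadjusted p under 0.05 (17.5% of all genes), with a median of −0.03. Mki67, a marker of cycling cells, had an interaction of −0.03 (95% interval −0.36 to 0.30). Of 27 ribosome biogenesis genes 1 stood at an unadjusted p under 0.05 in each direction (8.16% of all genes above 0 and 9.29% below). Their median was 0.01, although the median effect was 0.33 in nTregs and 0.29 in CD4 effector cells. Of 29 germline genes that DNA methylation silences, 1 stood above 0 and 4 below 0 at that level (8.16% and 9.29% of all genes), with a median of −0.08, which was 0.05 with centred arrays, beside −0.04 and 0.09 for all genes. Imprinted genes other than Plagl1 ran from −0.51 for Meg3 to 0.11 for Cdkn1c. Of the 26 imprinted genes, 4 stood below 0 at that level (9.29% of all genes): Meg3, Phlda2 (−0.39), Peg3 (−0.34) and Peg10 (−0.31). Of 16 enzymes and readers of DNA methylation, 4 stood at that level (17.5% of all genes), Mbd1 (0.55) and Gadd45b (0.36) above 0 and the helicase Hells (−0.50) and Dnmt3l (−0.43) below 0. These counts of 5 germline, 5 imprinted and 4 methylation genes fell to 2 each at the lowest when 1 array was left out. Dnmt1, the maintenance enzyme that AzaC traps, had an interaction of 0.11 (95% interval −0.45 to 0.66) and its partner Uhrf1 of 0.45 (−0.12 to 1.01). Intervals of this width allow differences in either direction.

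**Figure D5:**
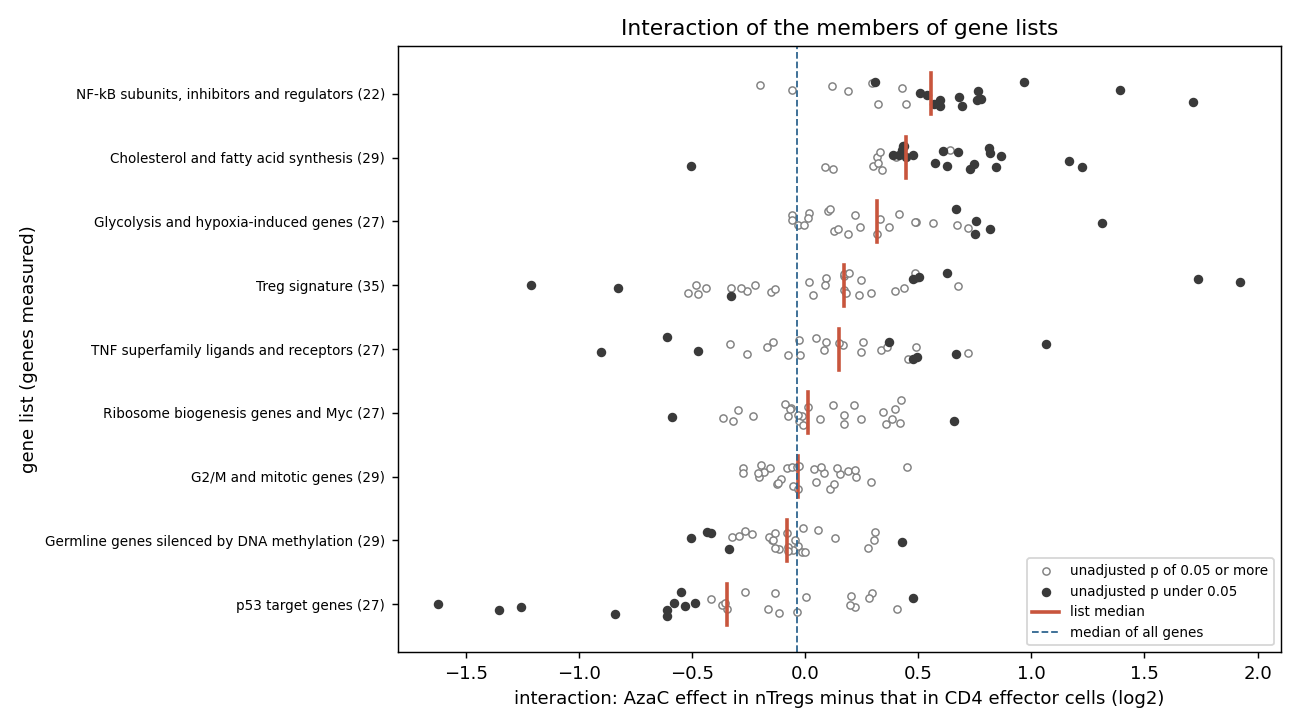
Interaction (log2, horizontal axis) of each measured gene of 9 lists, 1 point per gene, filled where the unadjusted p was under 0.05, with the list median in red and the median of all genes, −0.04, dashed. The NF-kB and the cholesterol and fatty acid genes lie mostly to the right of the dashed line, the p53 targets mostly to the left, and the G2/M genes around it.

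Some genes moved alike in both populations. The rule asked for effects of the same sign and at least 0.7 in both, with both tests passed and no called interaction. By it 31 of the 22180 genes moved alike. An interaction that was not called does not show that the effects were equal. The 2 that the naming rule passed over by their symbols, Gm10693 and Mir1949, had wider intervals than the 6 with bounds nearest to 0, which were Arfgef3, Ccn3, Gbe1, Ptger4, Clybl and Noct. Arfgef3 rose by 1.25 in nTregs and 1.23 in CD4 effector cells (interaction 0.03, 95% interval −0.30 to 0.35). The prostaglandin receptor Ptger4 rose by 0.74 and 0.85 (−0.12, interval −0.43 to 0.20), and Noct, a circadian enzyme, by 1.01 and 1.20 (−0.19, interval −0.54 to 0.17). Clybl, a mitochondrial lyase, had effects of −1.15 and −1.21 (0.06, interval −0.34 to 0.47), and Gbe1, which branches glycogen, of −0.74 and −0.77 (0.03, interval −0.34 to 0.39). Ccn3, a matrix-associated signalling protein, rose by 0.83 and 0.81 (0.02, interval −0.33 to 0.38). The cytokine gene Tnf rose by 1.05 and 1.12, an interaction of −0.07 (interval −0.57 to 0.42).

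The responses of the populations rest on separate arrays and can be set side by side. In nTregs 315 genes rose (1.42%) and 133 fell (0.6%), and in CD4 effector cells 184 rose (0.83%) and 207 fell (0.933%). In both populations 86 genes passed with the same sign (0.388%), and Il7r and 4930431P03Rik with opposite signs. Of the 315 genes that rose in nTregs, 76.8% had a positive difference in CD4 effector cells too, where 52.8% of all genes had one, and the median was 0.70 in nTregs and 0.20 in CD4 effector cells. Of the 207 that fell in CD4 effector cells, 83.6% had a negative difference in nTregs, beside 58.1% of all genes, with medians of −0.63 and −0.24. The interaction was called for 24 of the 315 and for 8 of the 207. The medians in the population where genes were chosen for passing are a description of that choice. Across all genes the effects in the 2 populations correlated at r = 0.08 (Spearman's rho = −0.04, over 22180 genes, which are not independent replicates).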

How the data were processed

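RNA of 4 groups of 3 sorted mouse T cell samples was hybridised to Affymetrix arrays after amplification of total RNA with the WT Pico kit, per the labels' protocols. Per the submitters' processing notes, the authors used Affymetrix Expression Console to make RMA values, and no version is stated. The deposited log2 values, which RMA had background-corrected, quantile-normalized and summarised per probe set, were used unchanged. A build for the array's annotation is not given in the sources.

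Of 41345 rows, 23521 carried exactly 1 symbol in the array's probe table, 1814 carried several and 16010 had no name. The row with the highest mean was kept for the 1082 genes with several rows, which left 22180 genes, of which 186 identifiers were absent from the RefSeq gene table. No dim genes were removed. In R 4.3.3, limma 3.58.1 fitted a mean for each group over the 12 arrays, with moderated variances (8 residual and 5.95 prior degrees of freedom). The interaction and both AzaC effects came from this fit. Adjusted p-values are Benjamini-Hochberg values over all genes, and all single-gene p-values are two-sided limma values. The test was checked on simulated data.

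The gene lists, the genes named and the comparison were chosen with earlier results of these data known, and some lists follow genes that stood out there, so that counts over them are descriptions. Named genes were the stable calls, meaning those that passed also without each array in turn, by size and by list, up to 6 genes that moved alike, and a fixed list that was given in every case. Promoter windows (250 bases before to 50 after a start) and the microRNA came from RefSeq on GRCm38.p6, with 16990 of the genes matched by symbol. Alternatives covered scaling, dim genes, rows per gene, replicate blocks, array weights, variance models and left-out arrays.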

Additional observations from a re-analysis of the deposited data

Results flagged for a closer look

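Each gene below had a called interaction between AzaC and population (log2, limma, adjusted p under 0.05 over all genes). Of the 45 calls, 24 were kept with treatment and number as a fixed replicate block, and 6 without moderation. Stable without each single array were the positive interactions of Plagl1 (1.92), Atp8b4 (1.99), Nfkbie (1.39), Enah (1.20) and Il7r (1.20), and the negative ones of Cd80 (−1.69) and Cdkn1a (−1.62).

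Interactions above 0 that lost the call in 2 to 11 of the 12 fits with 1 array left out were those of Il23r (1.85), Klrd1 (1.78), Csn2 (1.77), Dusp4 (1.74), Nfkb2 (1.71), Ubd (1.48), Scin (1.42), Epas1 (1.37), Trib1 (1.31), Ly6g5b (1.31), Mir133a-2 (1.29), Cxcr6 (1.28), Rragd (1.24), Muc1 (1.23), Scd1 (1.22), P2rx4 (1.21), Ncoa7 (1.15), Cd86 (1.10), Kit (1.07), Kif3b (1.07), Sgk1 (1.05), Rab6b (1.05), Slc16a5 (1.03), Pnkd (0.97), Dynlt3 (0.79), Birc2 (0.77) and St3gal6 (0.72).

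Interactions below 0 that lost the call in 3 to 12 of the 12 fits with 1 array left out were those of 9230114K14Rik (−1.65), Cox6b2 (−1.63), Mir34a (−1.49), Muc3a (−1.45), Dglucy (−1.36), Gpr155 (−1.33), 4930431P03Rik (−1.28), Slc19a2 (−1.03), Ddias (−0.96), Cd81 (−0.94) and Dcxr (−0.79).

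Rows of the table that carry no gene symbol entered none of the gene comparisons. In the fit over every row, 6 of them had a called interaction, all below 0, and 3 of the 6 held identical values, so that 4 sets of values differed. The interactions were −1.78, −1.75, −1.41 and −1.27. For the first, the mean signal was 8.78 ± 0.16 (SD, n = 3) in CD4 effector cells with PBS, 10.79 ± 0.12 with AzaC, 13.38 ± 0.20 in nTregs with PBS and 13.61 ± 0.06 with AzaC. The other sets had the same order of groups, with the CD4 AzaC arrays between the CD4 PBS arrays and the nTregs.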

How the results depend on the processing

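Of the 45 called genes, none changed sign under any alternative that was run. The count of calls, 45 (32 above 0, 13 below 0), moved with the setting. It was 79 (54 and 25) over genes with signal at the median in at least 1 group, 91 (84 and 7) with arrays centred on their medians, which shifted the median interaction of all genes by 0.13, and 55 (35 and 20) with repeated quantile normalization. Array weights gave 401 (241 and 160), no moderation 6 (5 and 1), and the fit over every row of the table, which adjusts over more rows, 13 (5 and 8). Leaving out nTreg PBS 1 and CD4 PBS 3 together gave 77 (47 and 30). With 1 array left out, calls ranged from 9 (nTreg AzaC 1) to 69 (nTreg PBS 1), with 7 to 45 above 0 and 2 to 24 below 0. The mean over a gene's rows gave 39, a variance trend with robust moderation 51, and a minimum size of 1 left 38.

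Replicate numbers were tried as a block. Residuals of same-numbered arrays, within and across treatments, correlated between −0.10 and 0.19 and not all above 0.1. No pairing was taken from the numbers in the main fit. Since it pools treatments, this rule cannot decide whether arrays of the same treatment were paired. The 6 pairs of an nTreg and a CD4 array with the same number and treatment, which the labels leave undecided as 1 co-culture or not, lay between 0.02 and 0.09, and 3 of the 12 such pairs with different numbers lay above 0. With the number as a replicate block the count was 40 (27 and 13), 34 of them among the 45. With treatment and number as a fixed replicate block it was 28 (19 and 9), 24 of them among the 45, and as a random block 58 (39 and 19), with all 45.

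Sign changes were found only among named genes without a call. With quantile normalization these were Arfgef3 (−0.003), Gbe1 (−0.048), Clybl (−0.013) and Dnmt1 (−0.008), and with centring Ptger4 (0.013), Tnf (0.055) and Mki67 (0.096). With array weights they were Gbe1 (−0.023), Mki67 (0.011) and Dnmt1 (−0.224), and without both arrays that stood apart Gbe1 (−0.050) and Dnmt1 (−0.263). With 1 array left out, the values ran from −0.033 to 0.102 for Arfgef3, −0.063 to 0.148 for Ccn3, −0.071 to 0.102 for Gbe1, −0.072 to 0.174 for Clybl, −0.243 to 0.089 for Tnf, −0.109 to 0.048 for Mki67 and −0.142 to 0.260 for Dnmt1. The cause of these shifts was not tested. The number of arrays, 3 per group, limits all values, and calls of genes near or under the median signal rest on array readings for which no background level was tested.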

Other observations

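Gene groups not described above differed in sign among their members. Of 26 lineage transcription factors, 7 had an interaction with an unadjusted p under 0.05 above 0 and 2 below 0 (8.16% and 9.29% of all genes), with a list median of 0.06. Runx1 (0.76), Batf (0.75), Eomes (0.74), Batf3 (0.60), Id3 (0.52), Tbx21 (0.50) and Gata3 (0.49) stood above 0, and Foxp3 (−1.21) and Id2 (−0.52) below 0. Eomes, a factor of memory and cytotoxic T cells, rose by 0.96 in nTregs beside 0.22 in CD4 effector cells, and Batf3, a partner of AP-1 proteins, by 1.14 beside 0.54. None of these reached an adjusted p under 0.05 in limma.

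Of 8 measured inhibitors of cyclin-dependent kinases, Cdkn1a was the called gene (0.203% of all genes were called). Cdkn1b (0.79) and Cdkn2d (0.76) stood on the other side of 0 at an unadjusted p under 0.05. At that level 8.16% of all genes stood above 0. Cdkn2d fell by 0.71 in CD4 effector cells. Of 34 interferon-stimulated genes, 4 stood above 0 and 3 below 0 at that level, beside 8.16% and 9.29% of all genes, from Ifit3 (−0.70) to Cxcl10 (0.75), with a list median of 0.12. Of 11 genes of the MHC class II pathway, H2-Aa had the highest interaction, 1.11 (adjusted p = 0.0666 in limma), and rose by 1.36 in nTregs, while H2-Ob stood at −0.61. Odc1, the first enzyme of polyamine synthesis, rose by 1.64 in nTregs beside 0.69 in CD4 effector cells, an interaction of 0.95 (adjusted p = 0.194 in limma).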
